A study of Mus musculus with 4 samples.

Results

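The miRNAs described are the mouse miR-219, miR-338 and miR-138 families, which are known as miRNAs of the oligodendrocyte lineage. They were taken by name, as every mouse miRNA on the array whose base name is miR-219, miR-338 or miR-138, with any strand suffix. The naming rule applied no filter on signal, but the families were chosen with earlier results of these data known. The rule found 5 of the 611 mouse miRNAs on the array, namely miR-219, miR-338-3p, miR-338-5p, miR-138 and miR-138*. Of these, miR-219 was detected on 4 of 4 arrays, miR-338-3p on 3, and the other members on 0.

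The arrays profiled neural stem and progenitor cells that were derived from mouse embryonic stem (ES) cells and grown as neurospheres, which are free-floating balls of dividing neural cells. Cells overexpressing NFIA (nuclear factor I/A) and control cells grew in the same spheres and were separated by fluorescence-activated sorting before total RNA was extracted. There was 1 array for each of 4 groups: primary neurospheres titled control, primary neurospheres titled NFIA OE (both at passage 0, day 6 after the embryoid body stage), secondary neurospheres titled control, and secondary neurospheres titled NFIA OE (both at passage 1, day 12). All 4 groups came from mixed wild-type and NFIA spheres, so the control cells too had been cultured beside NFIA cells. The promoter that drove NFIA, the number of lines or clones and the marker used for sorting are not given in the sources used here. The labels conflict: at each passage, the sample titled control has a source name that assigns it to the NFIA OE line, and the sample titled NFIA OE has one that calls it wild type. Groups are named here by title, and every sign of a title difference would turn if the source names were right. NFIA messenger RNA is not on a miRNA array, so neither label could be checked. No group had a replicate.

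MicroRNAs are short RNAs that pair through their seed, bases 2 to 8, with target messenger RNAs and lower their translation and stability. miR-219 and miR-338 are known to accumulate as oligodendrocyte precursors leave the cell cycle and mature into myelin-forming cells, where they repress genes that hold precursors in a proliferating state, such as Pdgfra, Sox6 and Hes5. miR-138 is also enriched in the oligodendrocyte lineage and is known in neurons for restraining the growth of dendritic spines. NFIA is a transcription factor that promotes the switch of neural progenitors from making neurons to making glia.

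The mature sequences below are those of the miRNAs that the members are named for, matched by name. The sequences of the probes themselves were not available. The RefSeq names and sequences (build GRCm38.p6) matched 5 of 5 members, and the seed is in capitals in each.

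miR-219 (RefSeq miR-219a-5p): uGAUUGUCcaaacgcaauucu
miR-338-3p: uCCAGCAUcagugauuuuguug
miR-338-5p: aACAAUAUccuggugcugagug
miR-138 (RefSeq miR-138-5p): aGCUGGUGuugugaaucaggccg
miR-138* (RefSeq miR-138-1-3p): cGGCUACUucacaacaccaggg

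The 5 members had 5 distinct seeds, and 0 other mature mouse miRNAs in the RefSeq table shared any of them. The members therefore cannot be grouped by seed, although they are grouped by lineage.

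The same mature miR-219 is encoded at 2 loci, chr2:29845689-29845709 on the minus strand (gene Mir219a-2) and at chr17:34025052-34025072 on the minus strand (gene Mir219a-1). Mir219a-2 lies within the span of the protein-coding gene Cercam, on the opposite strand. Mature miR-138 is likewise encoded at chr8:94324312-94324334 on the plus strand (Mir138-2, within the span of Nup93 on the same strand) and at chr9:122682898-122682920 on the plus strand (Mir138-1). Because the copies give the same mature sequence, the array cannot tell which locus a signal came from. miR-138* comes from Mir138-1, at chr9:122682936-122682957. Both arms of miR-338 come from 1 hairpin, at chr11:120014816-120014837 for the 5p arm and chr11:120014781-120014802 for the 3p arm, both on the minus strand within the span of Aatk, a kinase gene of the nervous system on the same strand. Exons and introns were not analysed here. The Mir338 hairpin is printed because its arms differed in detection, with the 5p arm first and the 3p arm second in capitals. The Mir138-1 hairpin, whose arms are both members, follows in the same style.

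Mir338: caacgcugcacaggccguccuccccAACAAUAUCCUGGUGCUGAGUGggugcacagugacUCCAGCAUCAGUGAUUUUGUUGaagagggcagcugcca
Mir138-1: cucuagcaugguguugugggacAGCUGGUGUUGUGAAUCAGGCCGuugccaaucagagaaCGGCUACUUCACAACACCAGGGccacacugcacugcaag

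Each member had 20 spots on every array, as 2 probes of 10 spots or, for miR-338-5p, 4 probes of 5 spots. A probe counted as detected when at least 50% of its unflagged spots were well above background by the scanner's flag, and a miRNA when at least 1 probe did. The arrays detected 186 to 220 of the 611 mouse miRNAs, and 153 (25%) on all 4, 38 (6.22%) on 3 and 359 (58.8%) on none. Over the 252 probes detected on all 4 arrays, the 75th percentile of intensity was 167 units on the primary array titled control, which was thus the dimmest, 261 on the primary array titled NFIA OE, and 443 and 369 on the secondary arrays titled control and NFIA OE. Each array was divided by this percentile, and levels below are log2 of the scaled intensity unless called unscaled. In bulk RNA, fewer cells of a type and less of the RNA per cell cannot be told apart.

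miR-219 was well above background everywhere, on 80 of 80 spots. Its first probe read 273 ± 17.2 units (SD over 10 spots) on the primary array titled control, 204 ± 14.0 on the primary array titled NFIA OE, 439 ± 18.6 on the secondary array titled control and 269 ± 7.34 on the secondary array titled NFIA OE. Its second probe read 349 ± 10.8, 264 ± 14.0, 529 ± 24.8 and 334 ± 11.0 units in the same order. With both probes, each array titled control was brighter than the array titled NFIA OE of its passage. These unscaled values put the secondary array titled control highest and the primary array titled NFIA OE lowest.

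**Figure D1:**
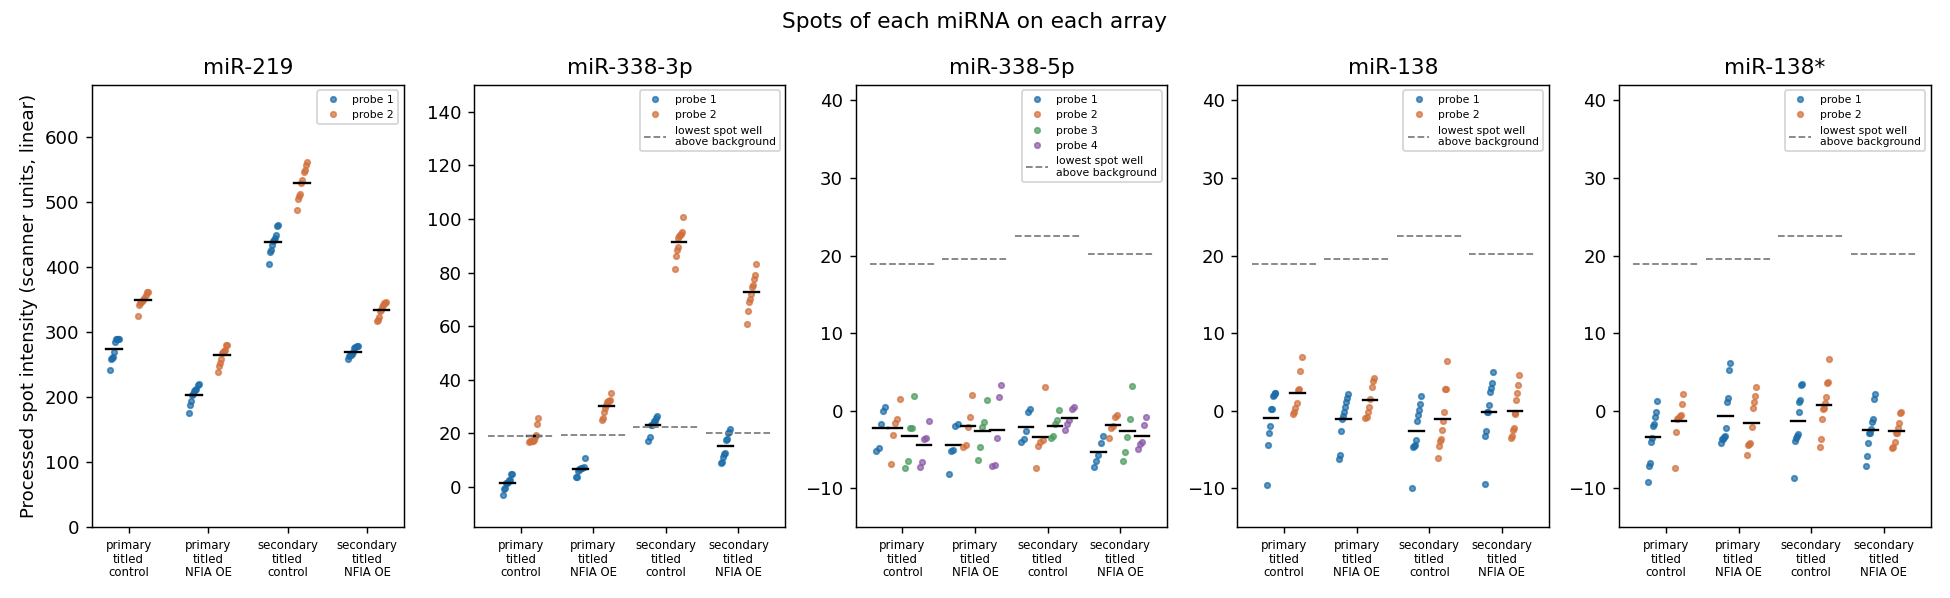
Processed intensity (scanner units, linear axis) of each unflagged spot of the 5 miRNAs on the 4 arrays, with a black bar at each probe's mean over spots and a dashed line at the lowest spot on the array that was well above background. The miR-219 spots lie between 176 and 561 units, the miR-338-3p spots lie around or above the dashed line for the brighter probe, and the spots of miR-338-5p, miR-138 and miR-138* scatter around 0; vertical scales differ between panels.

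After scaling, miR-219 had a log2 level of 0.88 on the primary array titled control, -0.17 on the primary array titled NFIA OE, 0.12 on the secondary array titled control and -0.30 on the secondary array titled NFIA OE. The primary array titled control now stood highest, because its scaling percentile was the lowest of the 4. The step of 0.76 from it down to the secondary array titled control exceeded 0.42, and the 3 lower arrays followed each other by less. The 0.42 is the standard error (SE) of a difference between a single pair of arrays. It comes from an SD pooled over all miRNAs detected on all 4 arrays, so it is not specific to miR-219 and gives no test.

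miR-219 was lower on the arrays titled NFIA OE at both passages, but the difference did not pass the test across all miRNAs. It was -1.05 log2 at passage 0, a little over 2-fold, and -0.42 at passage 1. These sizes depended on the scaling: unscaled they were -0.41 and -0.68, so that passage 1 had the larger difference, and with the median of all mouse probes they were 0.018 and -0.047. The probes agreed within each pair, at -1.07 (SE over spots 0.043) and -1.04 (0.028) at passage 0 and -0.44 (0.023) and -0.40 (0.026) at passage 1, where the SE over spots is technical error of 1 hybridisation and not of cultures. At passage 0, 16 of 179 miRNAs (8.94%) differed at least 2-fold, of which 9 (5.03%) were higher and 7 (3.91%) lower on the array titled NFIA OE, and 6 miRNAs had a lower value than miR-219. At passage 1, 9 of 195 (4.62%) differed at least 2-fold, 7 (3.59%) higher and 2 (1.03%) lower, and 19 had a lower value than miR-219. The gap of 0.64 between the scaled differences at the 2 passages, which turns without scaling, was not tested, since it enters the residual of the fit.

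In the limma fit over the 4 arrays, with title and passage as additive terms, the mean level of miR-219 was -0.23 on the arrays titled NFIA OE and 0.50 on the arrays titled control. The difference was -0.74 (SE 0.29, 95% interval -1.32 to -0.15, unadjusted p = 0.0135), or 1.67-fold higher on the arrays titled control, in 2 of 2 pairs. Its Benjamini-Hochberg adjusted p over 153 miRNAs was 0.148, so it was not called. The fit called 4 miRNAs (2.61%) by title, 2 (1.31%) in each direction, and 16 (10.5%) had an unadjusted p under 0.05. That split was 2 higher and 0 lower with the 75th percentile over all probes, the median of all mouse probes, quantile normalization or no scaling, 2 and 1 with normexp background correction, and 2 and 5 with the median over the detected probes. The miR-219 difference ranked 9 of 153 from the lowest, and the median of all miRNAs was -0.00. Under 11 alternatives it stayed below 0 and uncalled, with values from -0.87 to -0.01 and adjusted p from 0.0513 to 0.999; the smallest difference came from centring on the median of all mouse probes, which moved the median of all miRNAs to 0.72. Relative to the median of all miRNAs it lay between -0.74 and -0.53 throughout.

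In a list of markers of other cell types, detection also differed with title. That list was chosen with earlier results of these data known, so its values are a description and not a test. Of 9 mesenchymal, muscle and endothelial miRNAs, 1 was detected on each array titled control and 3 on each array titled NFIA OE, and their summed unscaled intensity was 120 and 214 units on the former against 608 and 923 on the latter. The member of that list in the fit, miR-199a-3p, was higher on the arrays titled NFIA OE by 2.05 (SE 0.29) and was called, while miR-143, miR-145, miR-126-3p, miR-1, miR-133a and miR-206 were detected on none. The counts thus rest on miR-199a-3p, miR-199a-5p and miR-214 alone and do not speak for the list as a whole. The part of these miRNAs in the miR-219 difference was not tested. Title also coincided with the column of the slide, from which it cannot be told apart.

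**Figure D2:**
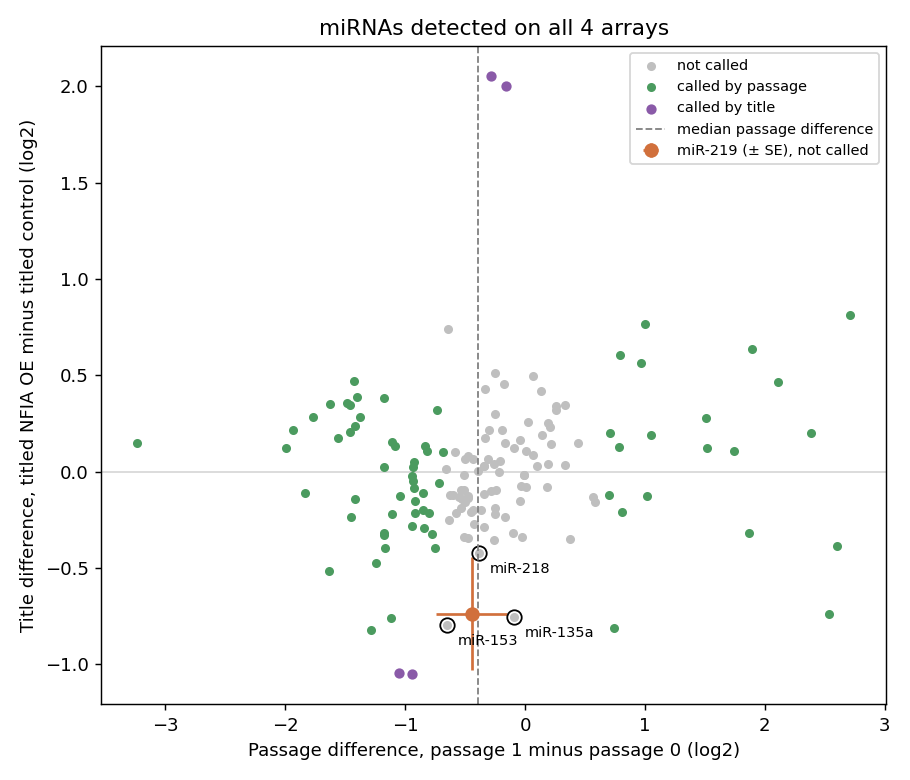
Title difference (titled NFIA OE minus titled control, vertical) against passage difference (passage 1 minus passage 0, horizontal), both log2, for the 153 miRNAs detected on all 4 arrays; colours give the calls at an adjusted p under 0.05, purple standing for a call by title whatever the call by passage, and open rings mark the 3 miRNAs most like miR-219. miR-219, at -0.74 by title and -0.44 by passage with bars of 1 SE, lies low in the plot and close to the dashed median passage difference of -0.39.

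Across passages the direction of miR-219 depended on how the arrays were scaled. Unscaled, its first probe was higher at passage 1 by 0.68 log2 in the control-titled pair and by 0.40 in the NFIA OE-titled pair, and its second probe by 0.60 and 0.34. Scaled, miR-219 was lower at passage 1 in both pairs, with differences of -0.76 and -0.13. The fit gave means of -0.09 at passage 1 and 0.36 at passage 0, a difference of -0.44 (SE 0.29, 95% interval -1.03 to 0.14, adjusted p = 0.215), not called.

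Against the other miRNAs, miR-219 lay near the middle in the fit, but on different sides of it in the pairs. In the control-titled pair 57 of 160 miRNAs (35.6%) differed at least 2-fold, 16 (10%) higher and 41 (25.6%) lower at passage 1, and 55 had a lower value than miR-219, whose -0.76 lay below the median of -0.41. In the NFIA OE-titled pair 126 of 188 had a lower value, and its -0.13 lay above the median of -0.39. The median passage difference of the 153 miRNAs was -0.39, so miR-219 differed from it by -0.05, and it ranked 73 from the lowest. With quantile normalization it ranked 43 from the lowest, at -0.47 from the median, and with normexp 96, at 0.13. The fit called 70 miRNAs (45.8%) by passage, 20 (13.1%) higher and 50 (32.7%) lower at passage 1. That split followed the scaling, with 25 higher and 5 lower for the 75th percentile over all probes, 22 and 1 for the median of all mouse probes, 20 and 1 with unscaled intensities, 21 and 30 after quantile normalization, 14 and 73 with normexp background correction, and 39 and 17 with the authors' processed values. The passage difference of miR-219 was below 0 under 7 of 11 alternatives and above 0 under 4, and called under 0.

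miR-338-3p, the partner of miR-219 in oligodendrocyte maturation, lay near the limit of detection on the primary arrays. Its brighter probe read 18.9 ± 3.07 units (SD over 10 spots) on the primary array titled control, 30.2 ± 3.15 on the primary array titled NFIA OE, 91.6 ± 5.38 on the secondary array titled control and 72.7 ± 6.67 on the secondary array titled NFIA OE. On the first of these 3 of 10 spots were well above background, and on the others 10 of 10. The secondary arrays were the bright ones for this probe, as they were by the scaling percentile over the commonly detected probes. The dimmer probe read 1.52, 6.64, 23.0 and 15.2 units in the same order and was detected on the secondary array titled control alone. If any spot well above background had been enough, miR-338-3p would have counted as detected on 4 arrays. The scanner's own flag for a detected miRNA was also set for it on 4 arrays.

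The scaled log2 level of the brighter probe was -3.14 on the primary array titled control, where it was not well above background, -3.11 on the primary array titled NFIA OE, -2.27 on the secondary array titled control and -2.34 on the secondary array titled NFIA OE. The arrays thus formed a low primary pair and a high secondary pair, and within each pair the arrays differed by less than the SE of 0.42. That SE was pooled over miRNAs detected on all 4 arrays, which did not include miR-338-3p.

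By passage, miR-338-3p was higher in secondary neurospheres in both pairs under the main scaling, although the difference was not called. Its size and its call depended on the processing, and with normexp background correction the control-titled pair turned. In the NFIA OE-titled pair miR-338-3p was higher at passage 1 by 0.77 log2 (SE over spots 0.063), and by 1.27 unscaled. Of 188 miRNAs in that pair, 42 (22.3%) differed at least 2-fold, 10 (5.32%) higher and 32 (17%) lower at passage 1, and 14 miRNAs had a higher value than miR-338-3p against a median of -0.39. In the control-titled pair it read 1.83-fold higher at passage 1, but the primary side was not well above background. The bright level was set against the probe's own reading on the dim array, which exceeded the lowest reading of any detected probe there. The 1.83 is thus a ratio of readings with error on both sides, and not a minimum.

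A fit over the 4 arrays that took in 191 miRNAs with a probe detected on at least 3, with the probe's own signal on the fourth, was added after the data were seen. It loosens the filter so that miR-338-3p enters, and it takes the reading on the primary array titled control, which was not well above background, as a level. Its values are therefore a description of these readings. The ratio given above for the control-titled pair rests on the same reading. It gave miR-338-3p a passage difference of 0.82 (SE 0.29, limma adjusted p = 0.0523), not called. It called 67 of 191 (35.1%) by passage, 17 (8.9%) of them higher, and 22 miRNAs had a higher difference than miR-338-3p, which stood 1.16 above the median of -0.34. Under 5 other scalings the difference was 1.03 to 1.77, with adjusted p from 0.0231 to 0.0482, on the same footing. With normexp background correction it was -0.071 (limma adjusted p = 0.773). That setting adds an offset of 50 units, more than the signal of this probe on both primary arrays, and the part of the offset was not tested.

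Signal and other markers moved with passage as well. Of the 38 miRNAs missing from a single array, 25 were missing from the primary array titled control, the dimmest. The 4 neural progenitor and neuron miRNAs on the array were detected on all 4 arrays, and their summed unscaled intensity was 922 (titled control) and 1152 (titled NFIA OE) units on the primary arrays and 8917 and 4742 on the secondary arrays. They did not share a direction: miR-9 and miR-9* were called higher at passage 1, by 1.87 and 2.60, miR-124 was called lower (-1.28, limma adjusted p = 0.000133), and miR-128 was not called (-0.26). Pluripotent-cell miRNAs went the other way, with 9 of 9 detected on each primary array against 1 and 7 on the secondary arrays titled control and NFIA OE, and sums of 1917 and 2510.1 against 200.0 and 375 units. The part of these in the passage values of miR-338-3p and miR-219 was not tested. Passage coincided with the row of the slide and with the day of culture, from which it cannot be told apart.

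By title, no difference in miR-338-3p stood out from the error. At passage 1 it was -0.07 log2 (SE over spots 0.050), against a median of -0.08 over 195 miRNAs. At passage 0 the reading on the array titled NFIA OE was 1.02-fold that on the array titled control, close to equality. The reading on the array titled control was not well above background, and the ratio is not a minimum. This ratio was 2.15-fold with the median of all mouse probes and 1.59-fold without scaling, and under 1 with normexp or the median over the detected probes. The added fit gave -0.02 (SE 0.29, limma adjusted p = 0.970), with the same reading taken as a level, where 3 of 191 miRNAs (1.57%) were called. A p of this size does not show that the levels were equal.

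**Figure D3:**
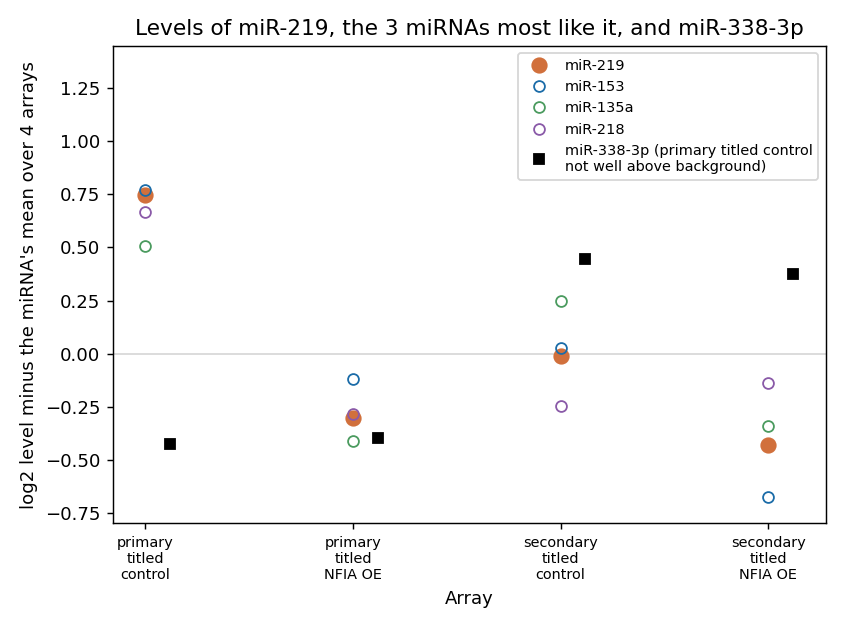
Scaled log2 level minus each miRNA's own mean over the 4 arrays, for miR-219, the 3 miRNAs whose profiles were closest to it, and miR-338-3p (squares, shifted sideways; not well above background on the primary array titled control). The circles are highest on the primary array titled control, whereas the squares are low on both primary arrays (-0.43 and -0.40) and high on both secondary arrays (0.44 and 0.38).

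The other members gave no signal above background. miR-338-5p, the opposite arm of the Mir338 hairpin, had array means of -3.25 to -2.06 units over its spots and a highest single spot of 3.34. miR-138 had array means of -1.81 to 0.471 and a highest spot of 6.88, and miR-138*, the opposite arm of Mir138-1, had means of -2.51 to -0.257 and a highest spot of 6.66. Negative values arise because background was subtracted. The lowest spot that was well above background on any array was 18.9 units, so the highest spot of these 3 members lay below it. Of their 232 unflagged spots 0 were well above background, and 9 (3.88%) were flagged as positive and significant, against 39.9% of 1736 negative-control spots. Even with 1 spot as the requirement they would have been detected on 0 arrays. At this sensitivity they were not detectable, and no fold can be given for them. miR-338-3p was thus measured from the hairpin printed above while miR-338-5p was not, but different probes set those signals and their levels cannot be set against each other.

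The authors' deposited table of processed values had the same members present. It listed miR-219 at 20.7 on the primary array titled control, 9.02 on the primary array titled NFIA OE, 18.8 on the secondary array titled control and 13.0 on the secondary array titled NFIA OE. It listed miR-338-3p at 0.679, 0.710, 2.23 and 1.89 in the same order, and the authors' deposited table had no value for miR-338-5p, miR-138 or miR-138*. These are linear intensities divided by 1 constant per array for which the sources used here give no basis. From the authors' deposited table the log2 title difference of miR-219 was -1.20 at passage 0 and -0.54 at passage 1, and the passage difference of miR-338-3p was 1.41 in the NFIA OE-titled pair. In the control-titled pair that of miR-338-3p was 1.71, with a primary side not well above background by the spot rule used here. By passage, miR-219 in the authors' deposited table was -0.13 in the control-titled and 0.52 in the NFIA OE-titled pair, again without 1 direction.

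**Figure D4:**
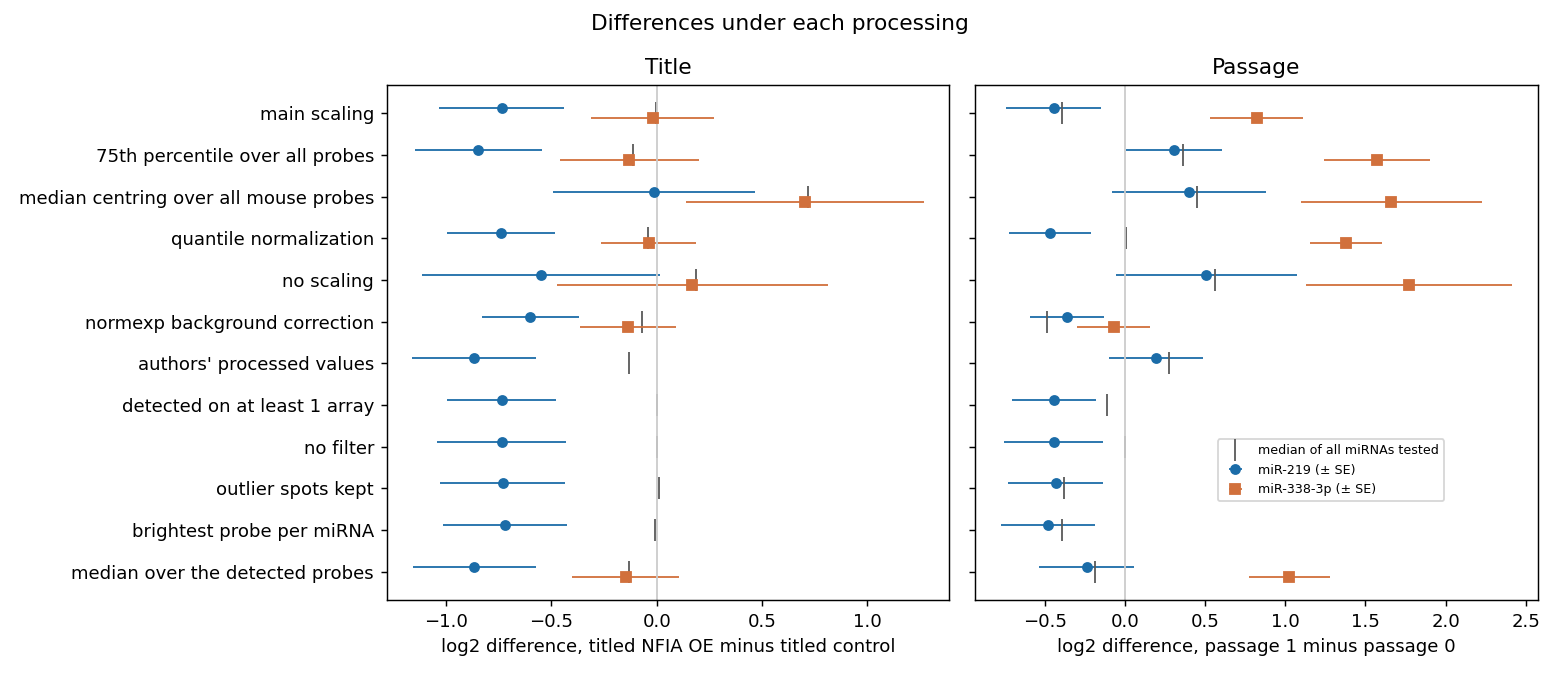
Title differences (left) and passage differences (right) of miR-219 (circles) and miR-338-3p (squares) in log2 with bars of 1 SE from the 4-array fits, under the main scaling and each alternative; grey ticks give the median of all miRNAs tested with miR-219, and the miR-338-3p values are those of the fit with probes detected on at least 3 arrays, which takes a reading not well above background as a level. The miR-219 circles stay left of 0 by title, between -0.87 and -0.01, but fall on both sides of 0 by passage, near the tick in most settings, and the squares by passage lie right of 0 except with normexp.

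The miRNAs most like miR-219 were sought among the other 152 detected on all 4 arrays, by the Euclidean distance between log2 profiles each centred on its own mean. The closest were miR-153 at a distance of 0.31, miR-135a at 0.38 and miR-218 at 0.39, where the median distance was 0.98. With 4 arrays such likeness describes these arrays only. miR-153 had levels of 0.38, -0.52, -0.37 and -1.07 in the array order used above, and a title difference of -0.80 (SE 0.29, limma adjusted p = 0.147). miR-135a had levels of 0.61, -0.31, 0.35 and -0.24 in the same order and a title difference of -0.76 (adjusted p = 0.148). miR-218 had levels of -0.97, -1.92, -1.88 and -1.77 and a title difference of -0.42 (adjusted p = 0.886), with the array titled control higher at passage 0 and lower at passage 1. Like miR-219, none of the 3 was called by title in the fit.

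Other miRNAs reported in oligodendrocytes or their precursors gave no common direction. Of 17 on the array 9 were detected on all 4 arrays, and miR-125a-3p, miR-145, miR-146a and miR-184 were detected on none. By title the limma fit called 0 of the 9 (2 had an unadjusted p under 0.05), against 2.61% of all miRNAs, with a median of -0.28 against -0.00. They ran from -0.82 for miR-124, a neuronal miRNA (limma adjusted p = 0.147), to 0.19 for miR-27a (adjusted p = 0.920).

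By passage 8 of the 9 were called, against 45.8% of all miRNAs, with 3 higher and 5 lower at passage 1 and a median of -0.85 against -0.39. The 9 are not independent: miR-17, miR-20a and miR-19b share a cluster, and miR-9 and miR-124 are also in the neural list. The list was also chosen with earlier results known, so this share is not a test of the lineage. miR-9, a miRNA of neural progenitors, rose by 1.87, miR-27a by 1.05 and miR-23a by 0.78, and these directions held under 7 of 7 other scalings. The proliferation-linked cluster members miR-17, miR-20a and miR-19b fell by 1.18, 0.94 and 0.85, miR-124 fell by 1.28 and miR-7a by 1.12. miR-124, miR-7a and miR-17 stayed below 0 under 7 of 7 other scalings and miR-20a and miR-19b under 6 of 7, but each of these 5 was called under 3 or fewer of them. miR-32 differed by -0.28 (adjusted p = 0.457) and was not called.

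Against the other cell-type lists, the oligodendrocyte list itself had 1 of 4 members detected on the primary array titled control and 2 of 4 on each other array, with miR-338-5p and miR-138 missing throughout. Of 6 astrocyte miRNAs 5 were detected on each primary array and 6 on each secondary array, with summed unscaled intensity of 1037 (titled control) and 2019.8 (titled NFIA OE) units on the primary arrays and 3217 and 2643 on the secondary arrays. These sums ranked the arrays in the same order as the scaling percentile, so they cannot be told apart from array brightness. Of the 5 in the limma fit 0 were called by title and 0 by passage, against 2.61% and 45.8% of all miRNAs, and 0 had an unadjusted p under 0.05 in either comparison. Under 7 other scalings, miR-29c was called higher at passage 1 under 3, and miR-26a and miR-29b under 1 each. Of 7 microglial and blood miRNAs 6 were detected on no array, against 58.8% of all 611 mouse miRNAs, and miR-155 was detected on the primary arrays alone. Their sums were 32.3 to 39.9 units on all 4 arrays. Of the labelled cell type, the neural markers miR-9, miR-9*, miR-124 and miR-128 were each detected on 4 of 4 arrays, beside the pluripotent-cell miRNAs described above.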

How the data were processed

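The 4 groups had 1 Agilent one-colour mouse miRNA array each. Per the file headers, the deposited scanner files come from Feature Extraction and hold intensity on a linear scale, with spatially detrended background subtracted and no scaling between arrays; other scanner columns used are flags. The authors' deposited table equalled the scanner's total gene signal intensity divided by 1 constant per array (20.3, 34.1, 33.7 and 31.0 for primary control, primary NFIA OE, secondary control and secondary NFIA OE by title; column medians 0.882, 0.830, 0.700 and 0.816), with no log, no centring and no direction to settle.

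Outlier-flagged spots (265 to 300 of 13000 per array) were left out; 0 were saturated. Spots were averaged per probe, divided by each array's 75th percentile over 252 commonly detected probes, put on the log2 scale and averaged over a miRNA's probes detected on every array compared. limma 3.58.1 (R 4.3.3) fitted title plus passage over 153 miRNAs, leaving 1 residual degree of freedom each; the prior was infinite, so the pooled SD of 0.29 is every SE. Calls used a Benjamini-Hochberg adjusted p under 0.05. With 1 array per group and both arrays of a passage from mixed spheres, p-values reflect no more than the spread among these 4 arrays, whose number limits precision. The fit was tested on simulated data. Single pairs were counted at 2-fold with no test. All members were named, with the 3 closest profiles to miR-219 and, from the lineage list, the extremes and calls. Members and lists were chosen with earlier results of these data known. Marker sums add unscaled probe means, with negative means set to 0. Alternatives varied scaling, background correction, filter, outlier spots, probe choice and covariates. Unused per-sample columns numbered 0.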

Additional observations from a re-analysis of the deposited data

How the results depend on the processing

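The miR-219 title difference kept its sign, uncalled, under 11 alternatives of the 4-array fit and without passage as a term; leaving out 1 passage left pairs at -1.05 and -0.42. The 4 calls by title became 2 with the 75th percentile over all probes, median centring over all mouse probes, quantile normalization or no scaling, 7 with the median over detected probes (added after the data were seen), and 0 with miRNAs detected on at least 1 array (unadjusted p under 0.05 for 15), with no filter (8), or without the passage term (2). The 70 calls by passage became 30, 23 and 21 with the 75th percentile over all probes, median centring and no scaling, and 2 and 0 (unadjusted 70 and 36) with the looser filters, where more dim miRNAs were tested.

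The miR-219 passage difference turned to 0.31 (75th percentile over all probes), 0.40 (median centring), 0.51 (no scaling) and 0.19 (authors' processed values), and leaving out 1 title left pairs at -0.76 and -0.13. For miR-338-3p the title difference at passage 1 became 0.30 with median centring. Its passage difference in the NFIA OE-titled pair became 1.35, 1.26, 1.26, 1.27, 0.084 and 1.41 with the 75th percentile over all probes, median centring, quantile normalization, no scaling, normexp and the authors' values. Its log2 ratio of 0.87 in the control-titled pair, with a primary side not well above background, became 1.79, 2.06, 1.50, 2.27 and -0.23 under the first 5 of these. Its 4-array title difference turned to 0.70 with median centring and 0.17 without scaling. Its 4-array passage difference was called at 1.57, 1.66, 1.38, 1.77 and 1.03 with the 75th percentile over all probes, median centring, quantile normalization, no scaling and the median over detected probes, and turned to -0.071 with normexp. With the looser filters it was 0.41, since the dimmer probe, detected on 1 array, enters at a floor above all its readings. Apart from the filters, the cause of these changes was not tested.

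The passage term already sets the arrays of a passage against each other; beyond it, no paired analysis was possible because the titles carry no replicate numbers. The slide could not be fitted as a block, since all arrays share 1 slide. Median centring over all mouse probes divides by 0.369 to 0.577 units, which is background, not signal. Signal over background limits miR-338-3p on the primary arrays and leaves miR-338-5p, miR-138 and miR-138* unmeasured. The labels' conflict on NFIA status leaves the sign of every title difference unsettled.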
